A study of Mus musculus with 24 samples.

Results

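Mir147, the mouse gene for the miR-147 hairpin, and AA467197, the protein-coding gene that contains it, were followed through small RNA libraries that were made from mouse CD4+ T cells or from extracellular vesicles (EVs), particles which the cells shed into the culture medium. The pair was taken by name and made up 2 of the 4408 features counted in all 24 libraries. Mir147 was 1 of 280 miRNA features. Both were selected on measured values, their read counts across the groups of these same libraries, so every difference of Mir147 or AA467197 between groups is given here as a description, without a test. By group mean with TMM scaling, the level of Mir147 was highest in resting cells and lowest in EVs from cultures with GW4869, while scaled to miRNA counts it was highest in stimulated cells and lowest in EVs with DMSO or GW4869. In each of the 4 culture conditions all 3 EV libraries held less of it than all 3 cell libraries.

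AA467197, also named Nmes1, codes for a small mitochondrial protein related to Ndufa4, a subunit of cytochrome c oxidase, the last enzyme of the respiratory chain. Its transcript also carries the miR-147 hairpin, which is cut out in the usual way by Drosha and Dicer to give a short mature strand that pairs with messenger RNAs through its seed, the bases near its 5′ end. Mir147 is best known in macrophages, where its transcript is induced through Toll-like receptors and where it dampens inflammatory gene expression. EVs are membrane-bound particles that carry part of the small RNA of the cell that sheds them, and a miRNA can be rarer or more common in them than in that cell.

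The mature 5p strand of miR-147 is shown with those of miR-155, the classical miRNA of lymphocyte activation, and of miR-146a, a brake on NF-kappaB signalling, because these are the inducible miRNAs that the levels of Mir147 are set against. They are followed by 1 strand from each of the 5 miRNAs whose pattern over the 8 groups was most like that of Mir147. Capitals mark the seed, bases 2 to 8 from the 5′ end, and the sequences are those of RefSeq on GRCm38.p6, where 184 of the 280 miRNA features were matched.
miR-147-5p: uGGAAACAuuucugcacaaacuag
miR-155-5p: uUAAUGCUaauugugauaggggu
miR-146a-5p: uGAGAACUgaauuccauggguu
miR-326-3p: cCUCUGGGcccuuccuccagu
miR-183-5p: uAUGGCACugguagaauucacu
miR-96-5p: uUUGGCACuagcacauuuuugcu
miR-33-5p: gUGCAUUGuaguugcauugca
miR-21a-5p: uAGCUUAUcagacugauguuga
The miR-147-5p strand is 24 bases long and lies at chr2:122640814-122640837 on the plus strand. Its seed, GGAAACA, was found in 0 other sequences among the 1738 mature miRNAs of that table. No sequence of the other strand, miR-147-3p, was at hand, so the seed of that strand is not shown and was not searched for. The 8 seeds shown all differ from each other; other strands were not compared. The deposited counts give 1 value per hairpin, so the strands of miR-147, miR-147-5p and miR-147-3p, cannot be told apart in them. Whether the reads of Mir147 came from the strand with the seed GGAAACA is therefore not known.

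All libraries came from CD4+ T cells of the spleen and lymph nodes of C57BL/6 mice, cultured in high-glucose DMEM, or from the medium of those cultures, and the RNA was taken with Trizol. Resting cells had first been stimulated for 2 days and expanded for 1 day, followed by 2 days of rest in medium that held IL2. Stimulated cells had spent 3 days on plates coated with antibodies that stand in for antigen (anti-CD3 at 2 µg/ml) and for costimulation (anti-CD28 at 5 µg/ml). The other 2 cultures were stimulated for 3 days with the vehicle DMSO or with GW4869, an inhibitor of neutral sphingomyelinase that lowers the release of exosomes. Each condition gave 3 cell libraries and 3 EV libraries. Whether replicates are separate animals, separate cultures or repeat libraries is not stated in the labels. Standard deviations (SD) give the spread between the libraries of a group, which may be technical. Standard errors (SE) and p-values come from 1 fit of all 24 libraries, which pools that spread over the groups. Resting and stimulated cells differed in culture time and earlier treatment as well as in stimulation, which cannot be told apart.

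Library totals ran from 1290918 to 3231626 counts. Mir147 levels are given as counts per 1000000 (CPM) after TMM scaling, which sets the libraries so that most features do not differ. The scaling matters here because miRNAs took 54.2 to 55.1% of the counts in resting cells but 36.2 to 40.8% in stimulated cells, and only 18.6 to 25.5% in EVs with GW4869. CPM of the library total, and counts per 1000000 miRNA counts, called miRNA-scaled levels, are therefore set beside the TMM values where the order of groups changes. Of the T cell markers, 5 of 10 were among the features (Mir142, Mir150, Mir181a-1, Mir181a-2 and Cd3e), and their summed level ran from 236300 to 266700 CPM in resting cells and from 17920 to 28990 CPM in EVs with GW4869. Of the markers of other cells, 0 of 2 for CD8 T cells, 0 of 10 for myeloid cells, 0 of 4 for B cells and 0 of 1 for liver and serum were among the features. Only Mir451a stood for erythroid cells, 1 of 7 markers, at 9.675 to 31.41 CPM in resting cells, 58.38 to 83.53 in stimulated cells, 42.01 to 49.8 in DMSO cells and 31.34 to 46.25 in cells with GW4869. In EVs it stood at 48.2 to 95.87 CPM in resting, 33.06 to 71.87 in stimulated, 31.13 to 53.57 in DMSO and 13.47 to 27.21 in GW4869 cultures, so that it was higher in resting EVs than in resting cells, where Mir147 was lower. Since no deposited count was under 4, a gene that is not among the features may still have had reads in some libraries. Macrophage RNA, a known source of miR-147, therefore has no marker here by which to measure it, and its part in the levels of Mir147 was not tested.

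The AA467197 row was in effect a second copy of the Mir147 row. Mir147 (ENSMUSG00000076309.2) lies on chromosome 2 of GRCm38 from 122640803 to 122640881 on the plus strand, a span of 79 bases. AA467197 (ENSMUSG00000033213.16) runs from 122636986 to 122641191 on the same strand. The annotation gives AA467197 4 transcripts, and 3 of them hold the hairpin in their last exon. In 2 of these, both protein-coding, the hairpin begins 33 bases after the stop codon, in the 3′ UTR. AA467197-203 ends at 122640729, before the hairpin. Over the 24 libraries AA467197 was given 4200 counts and Mir147 4184, so that Mir147 accounted for 99.62% of its host. The counts were equal in 15 libraries, the host was higher in 9, and it was lower in 0. The largest difference, 4 counts, was in the first DMSO EV library, with 45 counts for the host and 41 for Mir147. Among the 24 libraries only 16 counts thus fell in AA467197 outside its hairpin, and the row gives no level of its mRNA.

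The same double counting ran through other hosts, to very different extents. Of 55 miRNAs lying inside exactly 1 listed gene on the same strand, the miRNA held a median of 95.6% of the count of the gene around it, with a range from 15.9 to 100%. In 15 of the 55 pairs it held at least 99%, and AA467197 ranked 10th from the top. Vmp1, a gene of autophagy that overlaps Mir21a, was at 99.97%, and Mir155hg, the non-coding host of Mir155, was at 99.95%. By contrast Mir326 held 73.23% of the count of its host Arrb1, a beta-arrestin gene, and Mir146b held 29.84% of the count of Mfsd13a. AA467197 was therefore near the upper end of these hosts, and its fold changes repeat those of Mir147 to within 0.03 on the log2 scale.

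**Figure D1:**
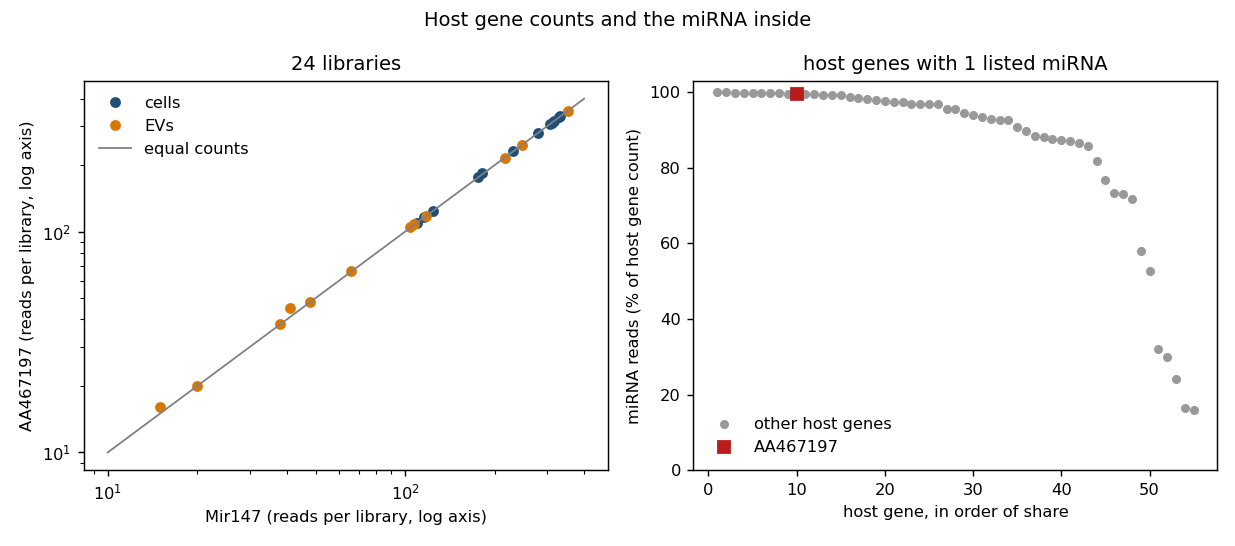
Left, counts of AA467197 against counts of Mir147 in each of the 24 libraries, on log axes, with a line of equality. Colours mark cells and EVs. Right, the share of the host gene count held by the miRNA in 55 same-strand pairs, with AA467197 marked. In 15 libraries the counts were equal, and no library departed from the line by more than 4 counts.

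Mir147 was read 306 to 318 times in each resting cell library, which is a level of 262.8, 243.6 and 269.2 CPM, or 258.5 ± 13.3 (SD, n = 3). Resting EVs held 195.2, 150 and 184.3 CPM, or 176.5 ± 23.5. Stimulated cells held 117.8, 163.6 and 103.3 CPM, or 128.2 ± 31.5. These 3 groups stood at the top of the order, and the libraries of resting EVs and stimulated cells overlapped on this scale in 1 pair only, 150 against 163.6 CPM. DMSO cells followed with 133.2, 103.3 and 116.7 CPM, or 117.7 ± 14.9, within the range of the stimulated cells. Cells with GW4869 held 62.68, 60.54 and 50.37 CPM, or 57.86 ± 6.58, below every library of the 4 groups above them. The other 3 EV groups stood lowest. Stimulated EVs held 26.75, 30.16 and 42.83 CPM, or 33.25 ± 8.48. DMSO EVs held 10.91, 16.82 and 18.87 CPM, or 15.54 ± 4.14, without overlap with stimulated EVs. EVs with GW4869 held 6.584, 17.79 and 8.162 CPM, or 10.84 ± 6.06, and overlapped with DMSO EVs. In bulk libraries such as these, fewer cells that hold an RNA and less of it per cell cannot be told apart.

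Among miRNAs Mir147 ranked higher in the cells than in the EVs of each condition. By group mean it ranked 113 of 280 miRNA features in resting cells, 135 in resting EVs, 127 in stimulated cells, 137 in DMSO cells and 175 in cells with GW4869. In stimulated EVs it ranked 177, and in DMSO EVs and in EVs with GW4869 it ranked 221. Over all 24 libraries its mean of 99.81 CPM put it at rank 143, between Mir128-1 at 101.5 CPM and Mir322 at 96.09 CPM. The 3 counts behind its level in EVs with GW4869 were 15, 48 and 20. Their exact Poisson intervals at 95% were 8.4 to 24.7, 35.4 to 63.6 and 12.2 to 30.9. In raw counts the middle library thus stood apart from both others by more than counting error, which is all that such intervals cover. They are not corrected for depth. Scaled to miRNA counts, Mir147 stood at 45.48, 118 and 73.97 in these libraries, and intervals on that scale were not computed. The coefficient of variation of its CPM in that group was 55.9%, against a counting error of 19% per library. In cells the counting error was 5.65 to 9.26% per library, and in resting EVs it was 6.07%.

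**Figure D2:**
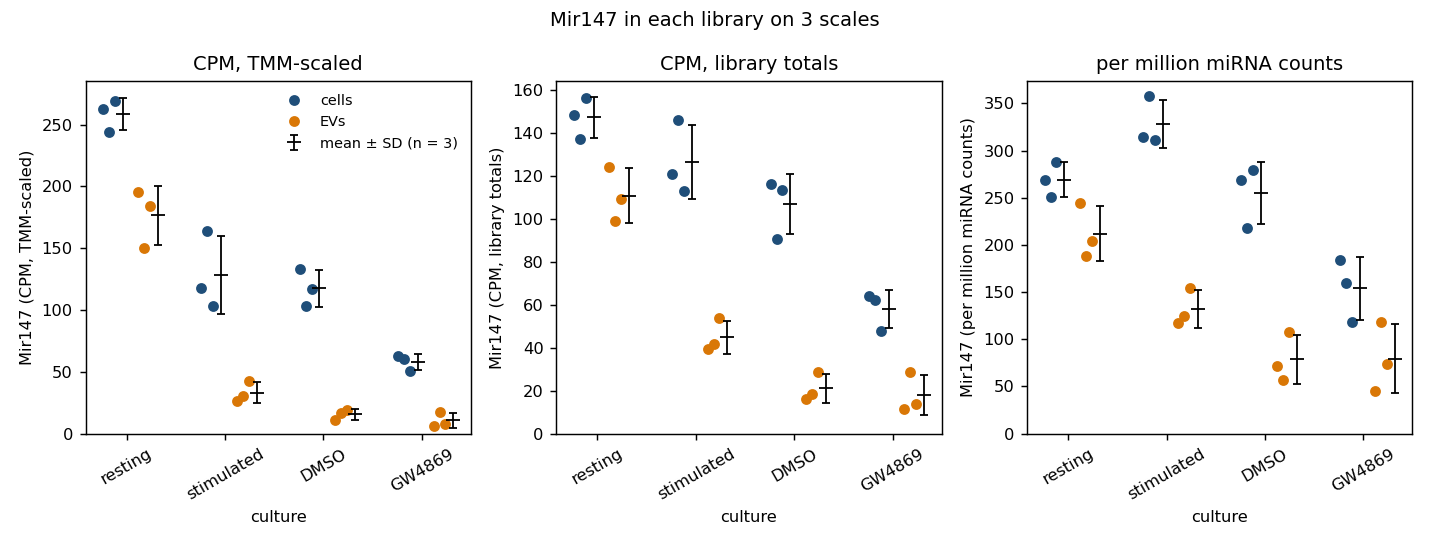
Mir147 in every library on 3 scales (CPM with TMM scaling, CPM of the library total, and counts per 1000000 miRNA counts), on linear axes. Points are libraries, coloured for cells and EVs, and black marks with bars are group means with SD (n = 3). EVs lie under the cells of their own condition on each scale, while resting and stimulated cells change places between the left panel (258.5 against 128.2) and the right panel (269.1 against 328.1).

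Set against the cells that shed them, resting EVs held slightly less Mir147 and the EVs of the 3 stimulated cultures held several times less. In resting cultures the log2 fold of EVs over cells was −0.55 ± 0.26 (SE), a level 1.46 times lower in EVs. The corresponding fold was −1.95 ± 0.27 with plain stimulation, or 3.86 times lower. With DMSO it was −2.93 ± 0.29, or 7.59 times lower, and with GW4869 −2.39 ± 0.30, or 5.25 times lower. No EV library reached the lowest cell library of its condition on any of the 3 scales. The gap was narrowest for miRNA-scaled levels with GW4869, where EVs ended at 118 and cells began at 118.4. AA467197 gave folds of −0.55 ± 0.25, −1.95 ± 0.26, −2.90 ± 0.28 and −2.37 ± 0.29, which are the same reads. Each condition has its own cells and EVs, so these 4 folds share no library; differences among the 4 were not tested.

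The other miRNAs of EVs also stood lower than in cells in stimulated cultures, and Mir147 was towards the far end of them. A feature was called where its edgeR quasi-likelihood p, adjusted by Benjamini-Hochberg over all 4408 features, was under 0.05. In resting cultures 18.9% of all features were called higher in EVs and 15.4% lower, and the median miRNA stood at a log2 fold of −0.06, with Mir147 26th from the lowest of 280. With plain stimulation 27.7% were called higher and 25.8% lower, the median miRNA stood at −0.58, and Mir147 was 9th from the lowest. In DMSO cultures 37% were called higher and 28.4% lower, the median miRNA stood at −1.13 and Mir147 was 4th from the lowest. With GW4869 36.2% were called higher and 32% lower, the median miRNA stood at −1.41 and Mir147 was 17th from the lowest. Mir147 was thus under the median miRNA in each condition. In the 3 stimulated conditions miRNAs as a class were called lower more often than higher, 133 against 7, 245 against 14 and 251 against 3. The division of calls depends on the scaling. With library totals, 1817 features were higher and 689 lower with plain stimulation, where TMM gave 1221 and 1138. In DMSO cultures library totals gave 2359 higher and 794 lower against 1631 and 1253, and with GW4869 they gave 2445 and 821 against 1595 and 1412.

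**Figure D3:**
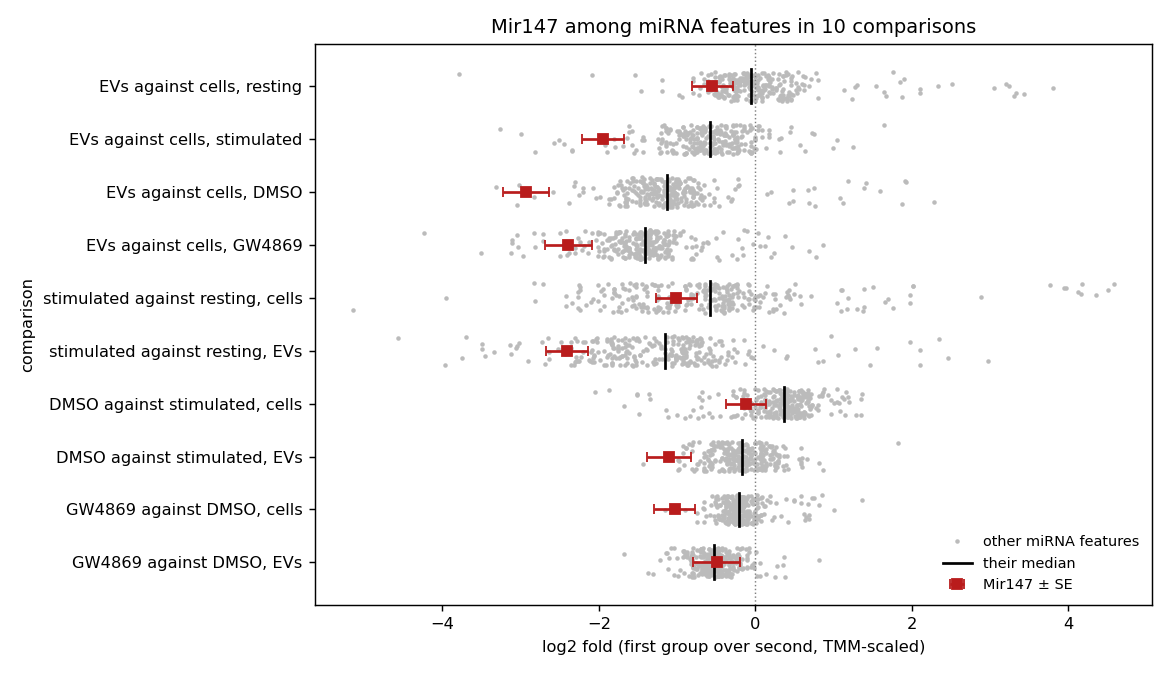
Log2 fold of each of the 280 miRNA features in the 10 comparisons, as points on a linear axis, with Mir147 and the median marked. Mir147 lies under the median in 9 comparisons and just above it for GW4869 against DMSO in EVs (−0.49 against −0.53).

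Of 15 miRNAs listed for induction in macrophages or lymphocytes, 11 were among the features, and nearly all were lower in the EVs than in the cells of stimulated cultures. In resting cultures 2 of the 11 were called higher in EVs and 1 lower. Their median log2 fold was 0.10, the same as the median of all features. Among all 280 miRNA features 31 were called higher and 18 lower in resting EVs, with a median of −0.06. Mir212, which shares a transcript with Mir132 and targets the same messages, was higher there, with 690.3 ± 140 CPM in EVs against 137.7 ± 13.3 in cells, a log2 fold of 2.33 ± 0.24 (edgeR adjusted p = 1.06e-08). Mir132 rose by 0.64 ± 0.21 (adjusted p = 0.0172) and Mir210, the miRNA of the hypoxia response, fell by 0.79 ± 0.22 (adjusted p = 0.00628). Mir155 at 0.19 ± 0.17 (adjusted p = 0.431) and Mir146, the files' name for the miR-146a hairpin, at 0.36 ± 0.21 (adjusted p = 0.195) did not pass. With plain stimulation 133 of all 280 miRNA features were called lower in EVs and 7 higher, with a median of −0.58. Of the 11 listed, 9 were called lower and 0 higher, with a median of −0.91 against 0.07 for all features. Besides Mir210, the largest of these folds were those of Mir146b, a near relative of miR-146a, at −1.55 ± 0.32 (adjusted p = 0.000187) and of Mir125a at −1.45 ± 0.27 (adjusted p = 6.19e-05). Mir146 at −0.60 ± 0.21 (adjusted p = 0.0179) was also called lower. When each replicate number was left out of all groups in turn, Mir212 in resting cultures and Mir210, Mir146b and Mir125a with plain stimulation were called each time. Mir132 in resting cultures was not called without the first or the second replicates, nor Mir210 without the third. With plain stimulation Mir155 and Mir212 were not called without the second, nor Mir146 and Mir21a without the first or the second.

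With DMSO and with GW4869 all 11 listed miRNAs were called lower in EVs, with medians of −1.58 and −1.70 against 0.29 and 0.18 for all features. Most miRNAs were lower there too, 245 and 251 of 280 by calls, with medians of −1.13 and −1.41. In DMSO cultures Mir210 fell by 2.83 ± 0.24 (edgeR adjusted p = 2.85e-10) and Mir99b stood at −2.08 ± 0.30 (adjusted p = 2.09e-06), and Mir155 stood at 5344 ± 1290 CPM in EVs against 12920 ± 705 in cells, a fold of −1.27 ± 0.17 (adjusted p = 7.79e-07). With GW4869 Mir125a, which lies beside Mir99b and is processed from the same transcript, stood at 7.721 ± 1.56 CPM in EVs against 67.43 ± 2.59 in cells, a fold of −3.11 ± 0.30 (adjusted p = 1.55e-09). Mir147 at −2.93 in DMSO cultures lay beyond the lowest of the 11, Mir210 at −2.83, and with GW4869 at −2.39 it lay inside their range. On the miRNA scale 1 of the 11 was called higher and 4 lower with plain stimulation, 1 higher and 5 lower with DMSO and 2 higher and 2 lower with GW4869, and the folds of Mir155 and Mir146 with plain stimulation turned to 0.02 and 0.03. Of the calls of these 11 in DMSO and GW4869 cultures, those of Mir221 and Mir222 were lost without 1 or more of the replicate numbers and the others were kept.

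**Figure D4:**
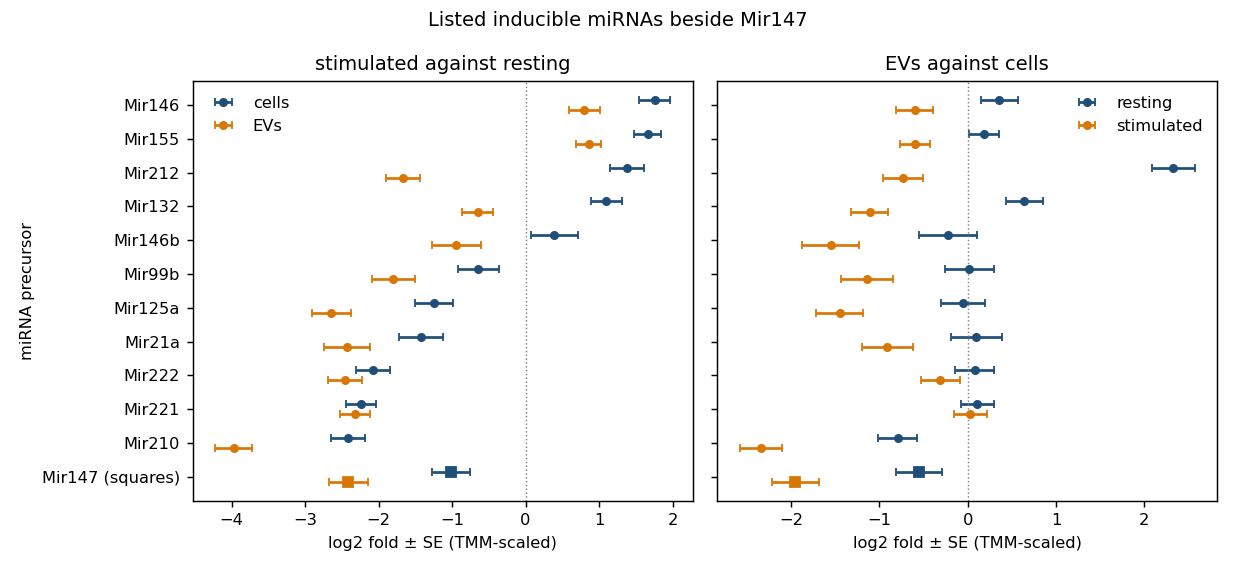
Log2 folds with SE of Mir147 and of the 11 listed inducible miRNAs in the comparisons of EVs with cells and of stimulated with resting libraries, on a linear axis. In cells Mir155 and Mir146 stand at 1.66 and 1.76 after stimulation, where Mir147 stands at −1.01.

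Stimulated cultures held less Mir147 than resting ones when most features were taken as level, in cells and in EVs. The log2 fold of stimulated over resting cells was −1.01 ± 0.26, a level 2.02 times lower, and the 3 stimulated libraries (103.3 to 163.6 CPM) stood under the 3 resting ones (243.6 to 269.2 CPM). This order rested on the scaling. As CPM of the library total, stimulated cells at 113 to 145.9 overlapped with resting cells at 137.1 to 155.9. On the miRNA scale stimulated cells stood higher, at 311.7 to 357.9 against 250.3 to 287.7. The raw counts were alike, 318, 311 and 306 in resting and 331, 329 and 279 in stimulated cells. Library totals moved the median of all features by 0.82 on the log2 scale in this comparison, and scaling to miRNA counts moved it by 1.34. In EVs the fold was −2.41 ± 0.27, or 5.32 times lower, and here stimulated libraries stood under resting ones on all 3 scales, at 39.17 to 53.57 against 98.88 to 124.2 CPM of the library total and at 117.1 to 154.8 against 188 to 243.9 in miRNA-scaled levels. The comparison of stimulated with resting EVs and those of EVs with cells share libraries.

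In cells 23% of all features were called higher after stimulation and 23.1% lower with TMM, 1014 and 1019 features, while library totals gave 1991 higher and 342 lower. In EVs 28.9% were called higher and 25.2% lower, 1274 and 1112 features, against 2880 and 426 with library totals. The median miRNA stood at −0.58 in cells and −1.17 in EVs, and Mir147 was 100th and 24th from the lowest of 280. In cells its fold was thus in the lower part of the class, but far from its end.

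The listed inducible miRNAs divided after stimulation, and with TMM scaling Mir147 stood on the side of the lower ones. In cells 4 of the 11 were called higher and 5 lower, with a median of −0.64 against −0.05 for all features. Among 280 miRNA features 31 were called higher and 131 lower in cells, with a median of −0.58. With library totals 5 of the 11 were higher and 4 lower, with a median of 0.18. Mir155 rose from 3747 ± 308 to 11830 ± 770 CPM, a log2 fold of 1.66 ± 0.18 (edgeR adjusted p = 2.05e-08). Mir146 rose from 841.4 ± 67.8 to 2847 ± 351 CPM, a fold of 1.76 ± 0.21 (adjusted p = 1.94e-07), and Mir132 and Mir212 were the other 2 that rose, by 1.10 and 1.38. All 4 were also called higher with library totals, with RLE size factors and on the miRNA scale. Mir210 fell by 2.42 ± 0.23 (adjusted p = 3.9e-09), Mir221 by 2.24 ± 0.20 (adjusted p = 7.16e-10) and Mir222, which shares the seed and the transcript of Mir221, by 2.07 ± 0.23 (adjusted p = 4.15e-08). In EVs 2 of the 11 were called higher and 9 lower, with a median of −1.80 against 0.09 for all features. Most miRNAs were lower there too, with 14 of 280 miRNA features called higher and 219 lower and a median of −1.17. For the 11, library totals gave 3 higher and 7 lower with a median of −0.69. The miRNA scale gave 4 higher and 5 lower with a median of −0.07. Mir155 rose there by 0.86 ± 0.17 (adjusted p = 0.000158) and Mir146 by 0.80 ± 0.21 (adjusted p = 0.00223), while Mir210 fell by 3.97 ± 0.25 (adjusted p = 2.26e-12), Mir125a by 2.64 ± 0.27 (adjusted p = 1.1e-08) and Mir222 by 2.46 ± 0.23 (adjusted p = 2.07e-09). All calls of listed miRNAs in cells held without each replicate number in turn, and in EVs that of Mir146 was lost without the third replicates and those of Mir146b and Mir132 without the first.

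With the vehicle DMSO the level of Mir147 was lower in EVs, while in cells the order depended on the scale. The log2 fold of DMSO over stimulated cells was −0.12 ± 0.26, and the libraries overlapped, at 103.3 to 133.2 against 103.3 to 163.6 CPM, though DMSO cells stood lower in miRNA-scaled levels, at 218 to 279.6 against 311.7 to 357.9. In EVs the fold was −1.10 ± 0.28, a level 2.14 times lower, and DMSO libraries stood under stimulated ones on all 3 scales. Mir147 was 42nd from the lowest of 280 miRNAs in cells and 2nd from the lowest in EVs, where the median miRNA stood at −0.17. The labels give no antibody dose for the DMSO cultures. For 3 names in the files the values of the 12 resting and stimulated libraries and those of the 12 DMSO and GW4869 libraries had been combined in every way, so these 2 sets of libraries may have been counted apart, and vehicle and counting cannot be told apart in this comparison. Among 280 miRNA features 47 were called higher and 15 lower in cells, with a median of 0.36, and 4 and 26 in EVs. In cells 11.9% of all features were called higher and 17.2% lower, and in EVs 13.6% higher and 9.91% lower. The split in cells was 523 higher and 756 lower with TMM, 726 and 631 with RLE size factors and 376 and 853 with library totals; in EVs it was 601 and 437 with TMM and 930 and 122 on the miRNA scale. Of the 11 listed miRNAs, 0 were called higher and 1 lower in cells, Mir146b with 22.46 ± 7.1 against 45.56 ± 14.2 CPM (edgeR adjusted p = 0.0195), with a median of 0.11 against −0.01 for all features. In EVs 0 were called higher and 3 lower, Mir146b at −1.43 ± 0.36 (adjusted p = 0.00509), Mir221 at −0.58 ± 0.19 (adjusted p = 0.03) and Mir155 at −0.54 ± 0.17 (adjusted p = 0.0237), with a median of −0.54 against 0.03. Over all features the 1279 calls in cells became 707 to 888 without 1 replicate number, and the 1038 in EVs became 400 to 731, or 349 with only these groups in the fit. Mir155 in cells, at 0.13 ± 0.17 (adjusted p = 0.62), and Mir146 in cells, at 0.30 ± 0.21 (adjusted p = 0.3), and in EVs, at −0.55 ± 0.21 (adjusted p = 0.0569), did not pass. Each of these 4 calls was lost without 1 or more of the replicate numbers: Mir146b in cells without the second or the third, Mir155 and Mir146b in EVs without the first or the third, and Mir221 without any of the 3.

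Cells with GW4869 held about 2.04 times less Mir147 than cells with DMSO, whereas EVs with GW4869 and with DMSO overlapped. The log2 fold in cells was −1.03 ± 0.26. The 3 libraries with GW4869 (116, 124 and 110 counts, 50.37 to 62.68 CPM) stood under the 3 with DMSO (230, 182 and 176 counts, 103.3 to 133.2 CPM), and did so on all 3 scales. In this comparison few features were called, 2.88% higher and 0.113% lower, 132 in all and between 2 and 21 when 1 replicate number was left out, and the median miRNA stood at −0.21, with 4 miRNAs called higher and 3 lower. Mir147 was 2nd from the lowest of 280. In EVs the fold was −0.49 ± 0.30, and the libraries overlapped on all 3 scales, at 6.584 to 17.79 against 10.91 to 18.87 CPM. It was −0.01 without the third replicates and lowest without the second ones, so its size rested on single libraries. The median miRNA in EVs stood at −0.53, and Mir147 was 157th from the lowest. In EVs 7.89% of features were called higher and 9.69% lower, 348 and 427 with TMM but 576 and 109 with library totals. Among miRNAs 0 were called higher and 54 lower in EVs. These calls depend on the fit: 775 features in all became 0 with only these groups in the fit (867 at an unadjusted p under 0.05) and 99 without the second replicates, while DESeq2 called 829.

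Of the 11 listed miRNAs only Mir221 was called between cells with GW4869 and with DMSO, at −0.75 ± 0.20 (edgeR adjusted p = 0.035), and the median of the 11 was −0.36 against −0.01 for all features. The median of 280 miRNA features in cells was −0.21, with 4 called higher and 3 lower. Mir155 at −0.46 ± 0.17 (edgeR adjusted p = 0.193) and Mir146 at −0.38 ± 0.21 (adjusted p = 0.462) did not pass there. In EVs 4 of the 11 were called lower and 0 higher, with a median of −0.48 against −0.07 for all features. The median of 280 miRNA features in EVs was −0.53, with 54 called lower and 0 higher. Mir125a fell by 1.37 ± 0.30 (adjusted p = 0.00362), Mir222 by 0.69 ± 0.23 (adjusted p = 0.0403), Mir221 by 0.67 ± 0.20 (adjusted p = 0.0222) and Mir155 by 0.55 ± 0.17 (adjusted p = 0.0313), while Mir146 at −0.53 ± 0.21 (adjusted p = 0.0727) did not pass. Library totals left 0 of 11 called in cells and 1 in EVs, and scaling to miRNA counts left 0 in both. The call of Mir221 in cells was lost without any 1 of the 3 replicate numbers, and the 4 calls in EVs were lost without the second or the third.

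Little could be measured of the enzyme to which the host gene's protein is related. Of 19 genes for cytochrome c oxidase subunits and relatives, 3 were among the features, mt-Co1, mt-Co2 and mt-Co3, which the mitochondrial genome encodes and which form the core of the enzyme; Ndufa4 was not among them. In small RNA libraries their counts stand for fragments. In resting cultures 0 of 3 were called between EVs and cells, with log2 folds from 0.14 to 0.57. In the stimulated, DMSO and GW4869 cultures all 3 were lower in EVs, at −4.02 to −3.76, −4.30 to −3.61 and −4.54 to −4.09, where 25.8, 28.4 and 32% of all features were called lower. With plain stimulation mt-Co1 stood at 8.04 ± 2.85 CPM in EVs against 108.1 ± 6.85 in cells (edgeR adjusted p = 7.4e-12). After stimulation 2 of 3 were called higher in cells, mt-Co2 by 1.93 ± 0.29 (adjusted p = 3.62e-06) and mt-Co3 by 1.34 ± 0.24 (adjusted p = 3.82e-05), where 23% of all features were, and all 3 were lower in EVs, where 25.2% of all features were. With DMSO against plain stimulation 2 of 3 were called higher in cells and 1 in EVs, beside 11.9% and 13.6% of all features. With GW4869 against DMSO 0 of 3 were called in cells and 1, mt-Co2, was lower in EVs at −1.07 ± 0.36 (adjusted p = 0.0435), beside 9.69% of all features, a call lost without any 1 replicate number. The calls of mt-Co1 in cells and mt-Co2 in EVs for DMSO were also lost without 1 or more of them. In cells these fragments and Mir147 thus stood on opposite sides after stimulation with TMM scaling, and in the EVs of stimulated cultures both stood lower than in cells.

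The features most like Mir147 were found by the root mean square (RMS) difference of group mean log2 CPM over the 8 groups, each feature centred on its own mean; a smaller value is a closer pattern. The median over 4406 features was 1.74 and that over 279 other miRNAs 1.01. Mir326, a miRNA known from Th17 cells, came first at 0.334, then Mir183 at 0.36, Mir96 at 0.448, Mir33 at 0.465 and Mir21a at 0.512. These were picked for their likeness, so their levels are a description. Mir326 stood at 313.1 CPM in resting cells, 160.5 in resting EVs, 80.02 in stimulated cells, 21.47 in stimulated EVs, 81.83 in DMSO cells, 13.65 in DMSO EVs, 60.91 in cells with GW4869 and 10.73 in EVs with GW4869. Mir183 followed the same course at a higher level, from 1691 ± 71.6 CPM in resting cells to 65.39 ± 7.48 in EVs with GW4869. Mir183 and Mir96 lie next to each other on the minus strand of chromosome 6, at 30169668 to 30169737 and 30169446 to 30169551, in a cluster that is transcribed as 1 unit. Mir33, which lies in an intron of the sterol regulator gene Srebf2, ran from 2021 ± 456 to 116 ± 35.9 CPM. Mir21a, among the most abundant miRNAs of activated lymphocytes, departed in that its mean was higher in resting EVs (140800 ± 26400 CPM) than in resting cells (131300 ± 4700 CPM), with overlapping libraries.

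In cells with GW4869 the folds of these miRNAs were smaller than that of Mir147. Their log2 folds over DMSO cells were −0.43 ± 0.24 for Mir326, −0.32 for Mir21a, −0.30 for both Mir183 and Mir96 and 0.00 for Mir33, where Mir147 stood at −1.03. The libraries with GW4869 and with DMSO overlapped for Mir326, Mir96, Mir33 and Mir21a. They did not overlap for Mir183, at 369.5 to 493.8 against 499.1 to 565.1 CPM, nor for Mir147. For stimulated over resting cells these miRNAs fell further than Mir147, which stood at −1.01. The folds were −1.97 for Mir326, −1.74 for Mir183, −2.17 for Mir96, −1.69 for Mir33 and −1.42 for Mir21a. Scaled to miRNA counts, the means of these 5 were lower in stimulated cells, with overlapping libraries for Mir33 and Mir21a, while that of Mir147 was higher. These differences between the miRNAs were not tested. Outside the miRNAs, the nearest features were 4930534D22Rik, an antisense RNA gene, at 0.38, a fragment of tRNA-Gln-CTG-7-1 at 0.387, Copz2, a coatomer subunit gene, at 0.461, a fragment of tRNA-Ser-CGA-2-1 at 0.509 and Wash1, a gene for a regulator of actin on endosomes, at 0.509. The counts of such genes can hold reads of small RNAs inside them, as those of AA467197 did. No listed small RNA lay inside 4930534D22Rik or Copz2, and unlisted ones were not searched for. With the measure taken over the 24 libraries, 4 of the 5 miRNAs and 4 of the 5 other features were again among the nearest 5.

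**Figure D5:**
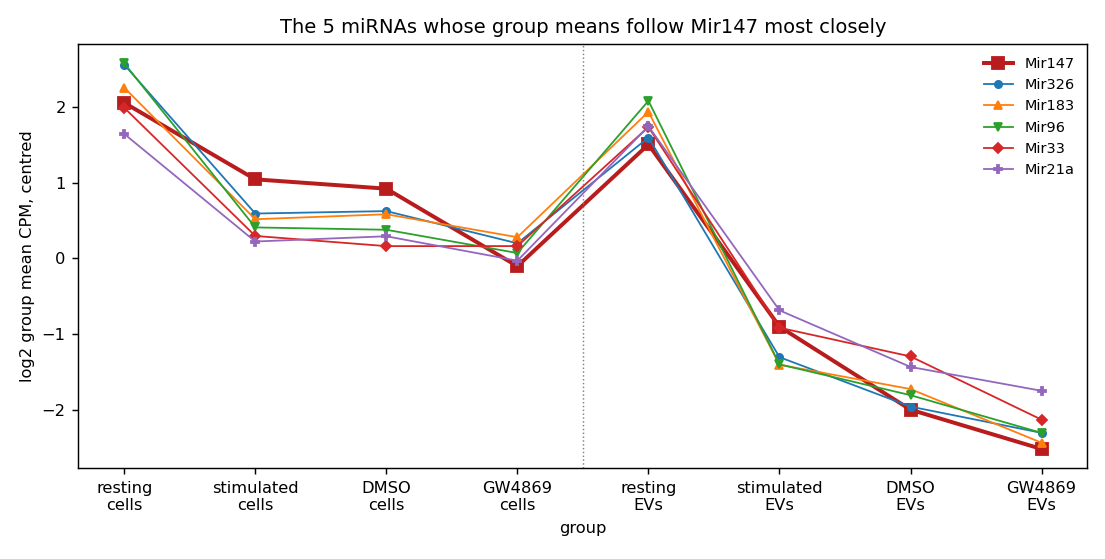
Log2 of group mean CPM, each feature centred on its own mean over the 8 groups, for Mir147 and the 5 miRNAs nearest to it. Every line stands higher in resting cells than in EVs with GW4869, and the RMS distance from Mir147 runs from 0.334 for Mir326 to 0.512 for Mir21a.

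Around AA467197 on chromosome 2, the only listed features within 1000000 bases were Patl2, a gene for an RNA-binding protein of oocytes, 450797 bases away, and Frmd5, a gene for a FERM domain protein, 829899 bases away. In EVs Frmd5 was called higher than in cells of the 3 stimulated conditions, at a log2 fold of 1.89 ± 0.33 with plain stimulation (27.07 ± 3.43 against 7.364 ± 2.35 CPM, edgeR adjusted p = 3.37e-05), 0.87 with DMSO (adjusted p = 0.0281) and 1.09 with GW4869 (adjusted p = 0.00492). Of all features 27.7, 37 and 36.2% were called higher in EVs in these 3 conditions. Patl2 was higher in resting EVs than in resting cells at 1.13 ± 0.39 (adjusted p = 0.023), where 18.9% of all features were called higher. Patl2 was lower in stimulated EVs than in stimulated cells at −0.98 ± 0.38 (adjusted p = 0.0338), where 25.8% were called lower. Between stimulated and resting EVs 28.9% of all features were called higher and 25.2% lower. In that comparison Frmd5 stood at 1.37 ± 0.34 (adjusted p = 0.0015) and Patl2 at −2.25 ± 0.37 (adjusted p = 1.39e-05). With GW4869 against DMSO neither was called, in cells or in EVs. The calls of Frmd5 with DMSO (without the first or the third replicates), of Patl2 in resting cultures (without the first or the second) and of Patl2 with plain stimulation (without any 1) were lost when replicates were left out.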

How the data were processed

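Small RNA was sequenced from 24 libraries in 8 groups of 3. Bowtie is the aligner, and GRCm38 and mm10 the builds, per the submitters' processing notes; the version of Bowtie, trimming, the treatment of multiply mapped reads, the strand setting, the counting tool and the annotation release are not given in the sources used here. Each deposited file holds whole-number counts per named feature, per the file headers. Of 4441 lines per file, 33 repeats were dropped. Features were placed by name on GENCODE M21, where 3500 matched exactly 1 gene. No 2 libraries were identical.

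The counts as deposited were fitted with edgeR 4.0.16 in R 4.3.3 with TMM scaling (glmQLFit and glmQLFTest with 1 term per group). The filter, filterByExpr with minimum count 10, removed 0 features. The fit was run on simulated counts where a small part of the features changed in a single group, up and down alike. That check does not cover changes as wide as those between these libraries, nor the choice of scaling. p-values were adjusted by Benjamini-Hochberg over 4408 features. Log2 CPM used a prior count of 2. Groups came from the titles. The members and the gene lists were chosen with earlier results of these data known. Named were the members, Mir155, Mir146 and the 3 largest called folds per list and comparison, the 5 miRNAs and 5 other features most like Mir147, its neighbours in level, and listed genes within 1000000 bases; Mir132, Mir212 and others outside these were named after their values were seen. Alternatives were size factors of DESeq2 (RLE), library totals, DESeq2 1.42.0, a stricter filter, a fit of only the groups compared, a replicate block and leaving out each replicate; scaling to miRNA counts was tried too. Added after the data were seen were this scaling for counts of calls and, for listed genes, RLE, the miRNA scale, the replicate block and leaving out replicates.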

Additional observations from a re-analysis of the deposited data

Results flagged for a closer look

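For some listed miRNAs and mitochondrial transcripts, all libraries of 1 group stood above those of the other in 1 comparison and under them in the matching comparison, and these differences were not tested. Of the values given here, Mir146 and mt-Co1 in resting EVs over cells (edgeR adjusted p = 0.195 and 0.0579) and mt-Co1 in stimulated over resting cells (adjusted p = 0.136) did not pass the test of their own comparison. The fold of EVs over cells for Mir146 was 0.36 in resting cultures against −0.60 with plain stimulation, −1.44 with DMSO and −1.59 with GW4869. Mir132 stood at 0.64 in resting cultures against −1.11, −1.58 and −1.70 in the same order, and Mir212 at 2.33 against −0.73, −1.01 and −1.11. Fragments of mt-Co1 stood at 0.57 against −3.76, −3.67 and −4.09. For stimulated against resting libraries, Mir132 stood at 1.10 in cells and −0.65 in EVs, and Mir212 at 1.38 in cells and −1.67 in EVs. Likewise mt-Co1 stood at 0.43 in cells and −3.91 in EVs, mt-Co2 at 1.93 and −2.59, and mt-Co3 at 1.34 and −2.63. All are log2 folds with TMM scaling. Scaled to miRNA counts, several turned: Mir146 to 0.03 with plain stimulation, Mir212 to 0.16 with DMSO and 0.38 with GW4869, and in stimulated against resting EVs Mir132 to 1.08 and Mir212 to 0.07; with library totals Mir132 in that comparison was 0.45. Mir147 itself, at −0.55 in resting cultures, had the same sign in the comparison of EVs with cells in all 4 conditions.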

How the results depend on the processing

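The folds of Mir147 moved by less than the spread between libraries in 100 of 110 alternatives, and by more in 10, all through the scaling. The sign changed in 5: in 1 of those 10, and in 4 with small folds, DMSO over stimulated cells (0.01 with RLE size factors and with DESeq2, 0.18 without the second replicates) and GW4869 over DMSO EVs (0.02 scaled to miRNA counts). With library totals, EVs over cells moved to −2.34 with DMSO and −1.66 with GW4869, and stimulated over resting libraries to −0.22 in cells and −1.30 in EVs. Scaled to miRNA counts, EVs over cells were −1.31 with plain stimulation, −1.70 with DMSO and −0.94 with GW4869, stimulated over resting EVs −0.68, GW4869 over DMSO cells −0.73, and stimulated over resting cells turned to 0.29 for Mir147 and AA467197 alike. The counts of features called moved in 18 of 110 alternatives. Stimulated against resting EVs went from 2386 to 3782 scaled to miRNA counts. DMSO against stimulated cells went from 1279 to between 707 and 888 without 1 replicate each. DMSO against stimulated EVs went from 1038 to 349 with only those groups in the fit and to between 400 and 731 without 1 replicate. GW4869 against DMSO cells went from 132 to 65 with RLE size factors, 217 with library totals, 252 scaled to miRNA counts and between 2 and 21 without 1 replicate, and DESeq2 called 125. GW4869 against DMSO EVs went from 775 to 0 with only those groups in the fit (867 at an unadjusted p under 0.05; DESeq2 called 829) and to between 99 and 775 without 1 replicate. Of the 11 listed miRNAs, scaled to miRNA counts, 5, 5, 6 and 4 were called in EVs against cells (resting, stimulated, DMSO, GW4869) in place of 3, 9, 11 and 11, 1 in place of 3 in DMSO against stimulated EVs, and 0 for GW4869 against DMSO in cells and EVs in place of 1 and 4. Library totals gave 6, 0 and 1 for those last 3. In cells GW4869 against DMSO gave 117 calls with only those groups in the fit.

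Libraries with the same number did not deviate together: in 0 of 10 comparisons did every pair correlate above 0.1 (range −0.37 to 0.33). With the replicate number as a block nonetheless, 219 features were called in DMSO against stimulated EVs, 12 in GW4869 against DMSO cells and 0 in GW4869 against DMSO EVs (753 at an unadjusted p under 0.05); the listed miRNAs called were 2 in DMSO against stimulated cells and 0 in the other 3 of these comparisons. The block left the folds of Mir147 at −0.64, −1.89, −2.99 and −2.55 for EVs over cells in the order above and at −1.02 for GW4869 over DMSO cells. Depth limits Mir147 in EVs with GW4869, where 15 to 48 counts were read.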
